A study of Mus musculus with 8 samples.

Results

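The 10 genes of the S100 and annexin families described here were measured in CD4+ T cells of mice with and without chronic CD70 costimulation, and are 10 of the 52636 rows of the deposited table. They were taken by name and are *S100a4*, *S100a6*, *S100a10*, *S100a11*, *S100a13*, *Anxa1*, *Anxa2* and *Anxa6*, which are 8 genes known from activated T cells, and *S100a8* and *S100a9*, a myeloid pair that is kept apart below. The RNA came from splenic CD4+ T cells sorted by a *Foxp3* reporter into Foxp3+ cells (Tregs) and Foxp3- cells (Tconvs), 200000 cells a library, with 2 libraries in each of 4 groups and 8 in all. CD27 is a costimulatory receptor of T cells and CD70 its ligand, and the design compares each subset between mice with and without a CD70 transgene.

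The CD70Tg groups came from CD11c-Cd70tg;CD27+/- *Foxp3* reporter mice, whose transgene makes CD70, which binds CD27, under the CD11c promoter and hence in dendritic cells. The control groups came from CD27+/- mice without that transgene, so that control and transgenic cells alike carried a single functional *Cd27* allele. The sample labels name the controls WT and the columns of the table name them KO, and these columns were taken as the CD27+/- controls. The general methods put the mice of the study at 6 to 8 weeks old. The number of mice behind each library is not given in the sources used here. The p-values therefore measure the spread between these libraries, which may be technical.

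S100 proteins are small calcium-binding proteins that change shape on binding calcium and then dock onto partner proteins, among them annexins, which bind to membrane phospholipids in the presence of calcium. S100A10 sits on annexin A2 in a stable complex at the plasma membrane, S100A11 binds annexin A1, and S100A4 binds the heavy chain of non-muscle myosin and is linked to cell motility. In CD4+ T cells several of these genes are low in naive cells and high in effector and memory cells, whereas S100A8 and S100A9 form calprotectin, an abundant cytosolic protein of neutrophils and monocytes.

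The S100 members, 7 of the 10 genes, lie on chromosome 3 (mm10). *S100a4* (ENSMUSG00000001020) is at chr3:90603771-90606045 on the plus strand and *S100a6* (ENSMUSG00000001025) starts 6.8 kb further on, at chr3:90612882-90624181. *S100a8* (ENSMUSG00000056054) follows *S100a6* after 44.8 kb, at chr3:90668978-90670035, and *S100a9* (ENSMUSG00000056071) lies 22.6 kb beyond it, at chr3:90692632-90695721 on the minus strand. *S100a13* (chr3:90514435-90524581) precedes *S100a4* by 79.2 kb. *S100a11* (chr3:93520488-93526287) and *S100a10* (chr3:93555080-93564643) form a second group, 28.8 kb apart. *Anxa1* is at chr19:20373428-20390944, *Anxa2* at chr9:69453620-69491795 and *Anxa6* at chr11:54979108-55033445.

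The reference table held the promoters of 8 of the 10 genes, and not those of *S100a10* and *Anxa6*. Of these, 4 are shown (RefSeq, GRCm38.p6, 5' to 3' on the strand of the gene, up to 250 bases before the start and ending where the annotated gene begins), because these genes carry the contrasts described below. *S100a4* had the largest response in Tconvs (chr3:90603520-90603769, plus strand), *S100a11* (chr3:93520246-93520487, plus strand) rose by a like amount in both subsets, *Anxa2* (chr9:69453433-69453619, plus strand) encodes the partner of S100A10, and *S100a9* (chr3:90695722-90695971, minus strand) was high in CD70Tg Tregs. Capitals mark matches to 4 motifs searched on both strands, AP-1 (TGANTCA), T-box (TCACACCT), GAS (TTCNNNGAA) and C/EBP (TTGCNNAA).
S100a4: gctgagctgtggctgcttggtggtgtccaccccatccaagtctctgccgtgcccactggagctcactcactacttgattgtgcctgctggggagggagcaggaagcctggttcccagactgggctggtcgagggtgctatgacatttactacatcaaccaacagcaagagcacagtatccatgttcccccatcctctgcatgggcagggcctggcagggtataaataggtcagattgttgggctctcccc
S100a11: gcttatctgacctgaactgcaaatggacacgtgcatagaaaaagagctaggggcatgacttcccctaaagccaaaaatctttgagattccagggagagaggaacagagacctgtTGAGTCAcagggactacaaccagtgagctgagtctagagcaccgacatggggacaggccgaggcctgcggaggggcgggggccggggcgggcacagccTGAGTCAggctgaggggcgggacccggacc
Anxa2: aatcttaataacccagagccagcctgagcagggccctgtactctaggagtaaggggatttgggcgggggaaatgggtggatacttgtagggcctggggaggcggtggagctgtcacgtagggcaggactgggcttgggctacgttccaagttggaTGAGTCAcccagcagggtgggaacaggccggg
S100a9: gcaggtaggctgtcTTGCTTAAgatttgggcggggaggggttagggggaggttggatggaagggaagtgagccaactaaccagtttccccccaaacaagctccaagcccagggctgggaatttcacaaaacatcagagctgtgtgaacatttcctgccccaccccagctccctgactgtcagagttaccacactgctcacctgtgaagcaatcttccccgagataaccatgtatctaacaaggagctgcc

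The sequence of *S100a11* held 2 AP-1 matches, beginning 128 and 30 bases before the end of the printed sequence. *Anxa2* held 1, beginning 32 bases before that end. *S100a9* held a C/EBP match beginning 236 bases before it, and *S100a4* held none of the 4 motifs. Among the promoters not shown, those of *S100a6*, *S100a8* and *S100a13* held none of the motifs either, and that of *Anxa1* held a C/EBP match. Of 32851 promoter windows of 250 bases, 6.7% held the AP-1 letters, 1.1% the T-box letters, 7.0% the GAS letters and 9.6% the C/EBP letters, so that single matches are common. A match is a description of these letters and was not tested as a binding site.

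Values are reads per gene scaled by the authors to 20 M per library and rounded up. Depth differed between libraries, with an estimated 6.94 to 33.31 M reads on genes in the Tconv and 1.91 to 4.57 M in the Treg libraries, so that 3 reads, taken as the floor, correspond to a value of 1.8 to 8.6 in Tconvs and 13.1 to 31.3 in Tregs. *Foxp3* was 19769 to 21367 in the Treg and 1039 to 1497 in the Tconv libraries, without overlap. Tests were made with limma on log2(value + 5) for the 12816 genes that reached 60 in at least 2 libraries, which 9 of the 10 genes did. A gene passed the test at an adjusted p-value under 0.05, and was called where its log2 fold change was also over 1. Reads, intervals of ratios and floors cover counting error only, and the study methods describe no removal of duplicate reads. In bulk RNA, more cells that express a gene and more RNA of that gene per cell cannot be told apart.

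In Tconvs the transgene went with higher *S100a4*, *S100a6* and *Anxa2*, 3 genes known to be high in effector and memory T cells. Of the 9 tested genes, 6 passed the test upwards (*S100a4*, *S100a6*, *S100a10*, *S100a11*, *Anxa2*, *Anxa6*) and 0 downwards, where 6.82% of all tested genes passed upwards and 1.99% downwards. Of the 9, 3 were called higher (*S100a4*, *S100a6*, *Anxa2*) and 0 lower, against 4.07% and 0.577% of all tested genes. The libraries of both groups did not overlap for 8 of the 9 genes, all higher in CD70Tg, which held for 23.7% of all tested genes, with 21.4% lower.

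*S100a4* was 686 and 731 in control Tconvs and 4576 and 5778 in CD70Tg Tconvs. Both CD70Tg libraries lay far above both controls. The mean rose from 708 ± 31.8 to 5177 ± 850 (SD, n = 2), a ratio of 7.31 and a log2 fold change of 2.85 ± 0.14 (SE, limma, adjusted p = 1.2e-09). The value of *S100a4* is shared with *Gm42674*, an annotated transcript on the same strand with which it has 302 exon bases in common, 51.7% of its exon length. *Gm42674* stood at 92.9% to 97.2% of *S100a4* in every library, and the reads of both cannot be told apart.

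*S100a6*, which encodes calcyclin, a partner of the ubiquitin ligase adaptor CACYBP, was 1178 and 1038 in control and 3432 and 4548 in CD70Tg Tconvs. It rose 3.60-fold on the means (log2 fold change 1.83 ± 0.14, SE, limma adjusted p = 1.4e-07). *Anxa2*, whose protein anchors S100A10 at the membrane and binds plasminogen activators, was 1424 and 1197 in control and 3320 and 5200 in CD70Tg Tconvs. It rose 3.25-fold on the means (log2 fold change 1.67 ± 0.17, SE, limma adjusted p = 4.2e-06). For both genes the second CD70Tg library, the most deeply sequenced of all, stood above the first, and the call held when either library was left out.

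*S100a11* was 2056 and 1995 in control and 3420 and 3580 in CD70Tg Tconvs, and rose by a log2 fold change of 0.79 ± 0.11 (SE, limma adjusted p = 1.3e-04). The groups were well apart and the libraries of each close together. Its value may include reads of its processed pseudogenes *Gm12854* and *Gm7665*, which share 98.99% and 98.653% of 297 aligned bases with it. Both were low, at 8 to 18 in the Tconv libraries.

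*S100a10* and *Anxa6* rose by less. *S100a10* was 5367 and 5998 in control and 7748 and 7630 in CD70Tg Tconvs (log2 fold change 0.44 ± 0.11, SE, limma adjusted p = 0.018). *Anxa6*, which encodes a membrane scaffold protein, was 14977 and 14878 in control and 19126 and 21378 in CD70Tg Tconvs (log2 fold change 0.44 ± 0.12, SE, limma adjusted p = 0.029). Neither gene overlapped between the groups, but both passes were sensitive, held under 12 of 18 alternatives for *S100a10* and 7 of 18 for *Anxa6*. With the 4 Tconv libraries alone the limma adjusted p-values were 0.083 and 0.11, and with no minimum value 0.08 and 0.11. *S100a10* no longer passed without the first control library (adjusted p = 0.15) or the second CD70Tg library (0.0521), and *Anxa6* did not pass without either control library (0.098 and 0.12), without the second CD70Tg library (0.15) or without any 1 of the Treg libraries (0.0536 to 0.0549). With median-of-ratios or upper-quartile scaling both genes stayed higher by a log2 fold change of 0.39 and did not pass, with adjusted p-values of 0.08 and 0.1 for *S100a10* and 0.1 and 0.13 for *Anxa6*.

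*Anxa1*, which encodes a glucocorticoid-induced ligand of formyl peptide receptors, was 73 and 90 in control and 145 and 335 in CD70Tg Tconvs. The CD70Tg libraries were both higher but far apart, and the difference did not pass (log2 fold change 1.39, 95% interval 0.46 to 2.32, limma adjusted p = 0.061). It passed under 6 of 18 alternatives. These were limma-voom on the estimated reads (adjusted p = 0.0038), and limma with a pseudocount of 20 (0.033) or with the 4 Tconv libraries alone (0.015). The others were the fits without the first CD70Tg library, where the log2 fold change was 1.98, and without either CD70Tg Treg library, which only add to the estimate of the spread. *S100a13*, whose protein takes part in the release of signal-less cytokines, was 1218 and 1294 in control and 1329 and 1922 in CD70Tg Tconvs and did not pass (log2 fold change 0.35, 95% interval 0.01 to 0.68, limma adjusted p = 0.23). Without the first CD70Tg library it passed (log2 fold change 0.61, adjusted p = 0.011).

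**Figure D1:**
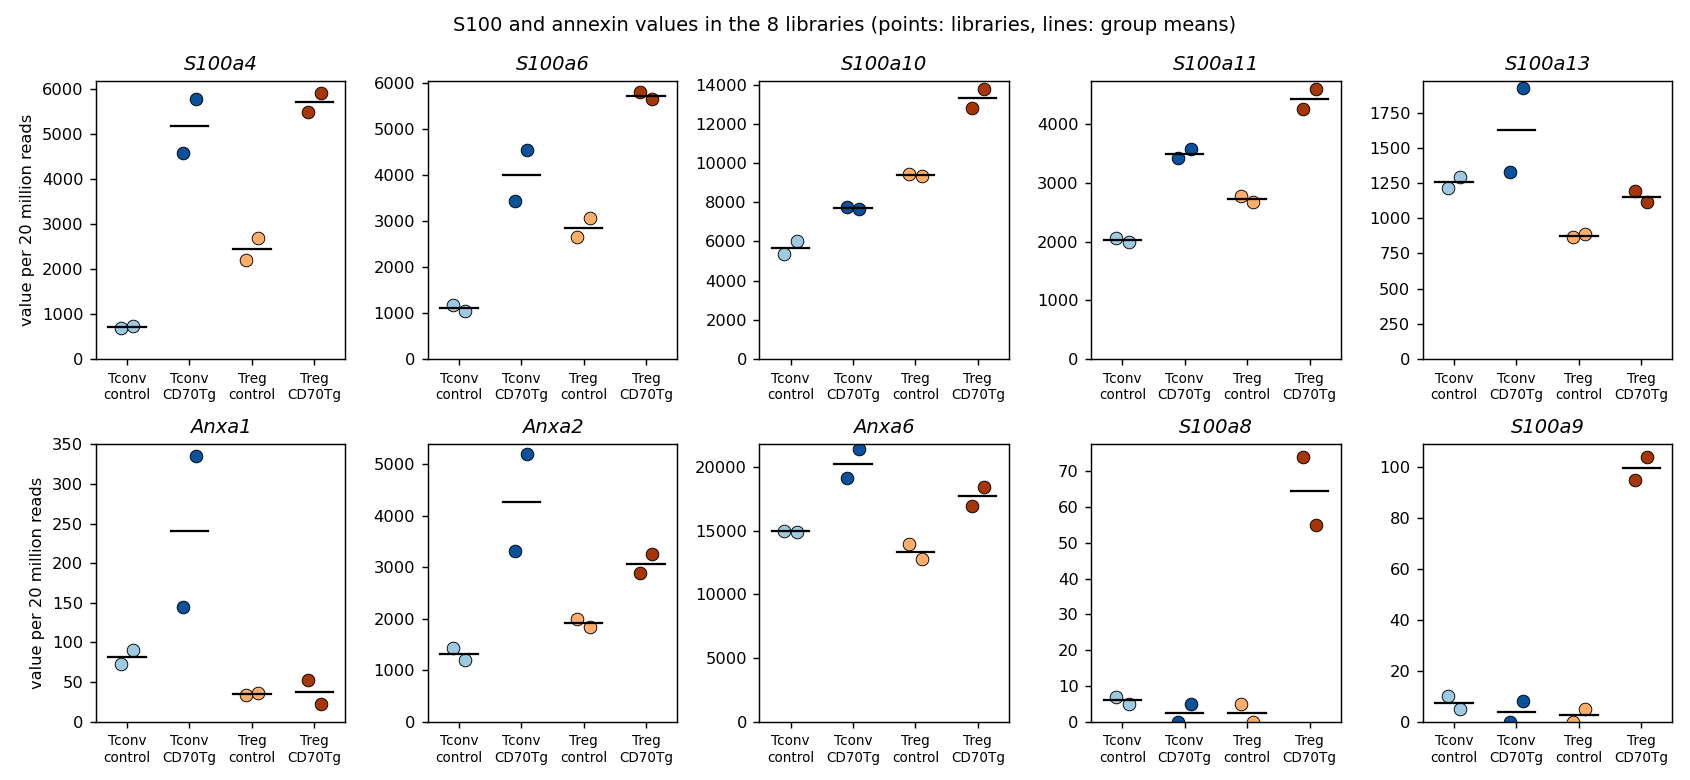
Value per 20 M reads (y axis, linear from 0, own range in each panel) of the 10 genes in the 4 groups, with a point for each of the 2 libraries of a group and a line at the group mean. S100a4 stood at 686 and 731 in control Tconvs against 4576 and 5778 in CD70Tg Tconvs, while S100a8 and S100a9 reached 55 to 104 in the CD70Tg Treg libraries and at most 10 in the 6 others.

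In Tregs the same direction was seen for *S100a4*, *S100a6*, *S100a10*, *S100a11* and *Anxa2*. With *S100a9*, 6 of the 9 tested genes passed upwards and 0 downwards, where 3.94% of all tested genes passed upwards and 3.46% downwards. Of the 9, 3 were called higher (*S100a4*, *S100a6*, *S100a9*) and 0 lower, against 2.53% and 1.08% of all tested genes. *S100a9* reached the minimum value only through the CD70Tg Tregs, so that its inclusion and its difference are not independent. Without it, 5 of the 8 activated T cell genes passed. The libraries did not overlap for 8 of the 9 genes, all higher in CD70Tg, as for 22.5% of all tested genes, with 31.2% lower.

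*S100a4* was 2189 and 2676 in control Tregs and 5486 and 5905 in CD70Tg Tregs. Both transgenic libraries were clearly above both controls. The log2 fold change was 1.23 ± 0.14 (SE, limma adjusted p = 4.3e-05). *S100a6* was 2640 and 3070 in control and 5799 and 5644 in CD70Tg Tregs, with a log2 fold change of 1.01 ± 0.14 (SE, limma adjusted p = 2.5e-04). Both genes passed under every alternative that was run, with adjusted p-values up to 0.024 and 0.033, but as the log2 fold change of *S100a6* was close to the threshold of 1, its call by size is marginal.

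*S100a11* was 2786 and 2680 in control and 4253 and 4606 in CD70Tg Tregs, and rose by a log2 fold change of 0.69 ± 0.11 (SE, limma adjusted p = 8.7e-04). The Treg libraries held more of its pseudogene *Gm7665* than the Tconv libraries did, at 88 and 101 in control and 209 and 87 in CD70Tg Tregs. *S100a10* was 9443 and 9335 in control and 12831 and 13762 in CD70Tg Tregs, the highest values of this gene in the series (log2 fold change 0.50 ± 0.11, SE, limma adjusted p = 0.011). *Anxa2*, its partner, was 1990 and 1839 in control and 2884 and 3263 in CD70Tg Tregs (log2 fold change 0.68 ± 0.17, SE, limma adjusted p = 0.02). For *S100a10* and *Anxa2* the groups did not overlap, but leaving out any 1 of the 4 Treg libraries ended the pass. The adjusted p-values were then 0.11 and 0.093 for *S100a10* and 0.092 and 0.13 for *Anxa2* without the first and second control library, and 0.058 and 0.11 for *S100a10* and 0.066 and 0.15 for *Anxa2* without the first and second CD70Tg library. *Anxa2* also did not pass with limma-voom on the estimated reads (adjusted p = 0.16).

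*Anxa6* was 13907 and 12790 in control and 16948 and 18427 in CD70Tg Tregs and missed the threshold narrowly (log2 fold change 0.41, 95% interval 0.15 to 0.66, limma adjusted p = 0.0504). It passed under 4 of 18 alternatives, with the 4 Treg libraries alone (limma adjusted p = 0.0045), without either CD70Tg Tconv library and without the second control Tconv library. *S100a13* was 864 and 889 in control and 1192 and 1115 in CD70Tg Tregs and did not pass (log2 fold change 0.39, 95% interval 0.06 to 0.73, limma adjusted p = 0.15). It passed narrowly under 2 of 18 alternatives, with the 4 Treg libraries alone (limma adjusted p = 0.0454) and without the first CD70Tg Tconv library. Neither gene overlapped between the groups.

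*Anxa1* was the one tested gene whose Treg groups overlapped, at 34 and 36 in control and 53 and 22 in CD70Tg Tregs. These values rest on an estimated 7 and 8 reads in control and 5 and 4 reads in CD70Tg Tregs. The log2 fold change was -0.02 with a 95% interval from -0.95 to 0.92 (limma adjusted p = 0.99), so that a difference within that interval is not excluded.

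**Figure D2:**
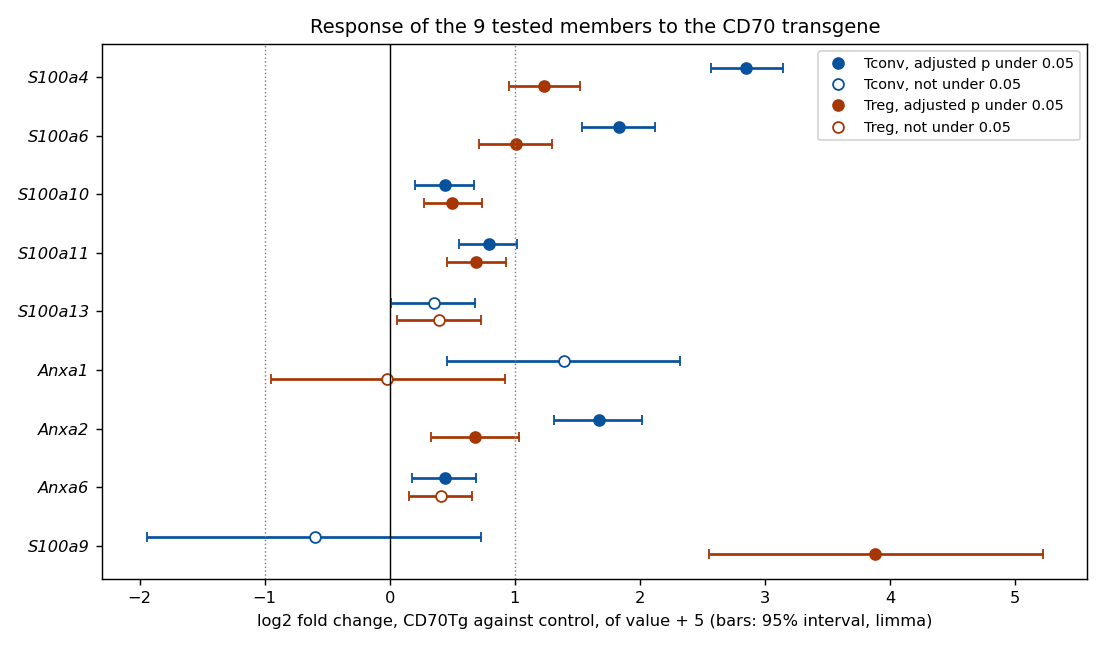
Log2 fold change of value + 5, CD70Tg against control (x axis), of the 9 tested genes in Tconvs (blue) and Tregs (red), with 95% intervals from limma, filled where the adjusted p-value was under 0.05 and dotted lines at -1 and 1. S100a4 stands at 2.85 in Tconvs and 1.23 in Tregs, whereas S100a11 stands at 0.79 and 0.69, and S100a9 at -0.60 and 3.88.

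The difference between the Treg and Tconv responses was then tested directly. It passed for 1 of the 9 genes with a smaller response in Tregs (*S100a4*), where 0.827% of all tested genes passed in that direction, and for 1 with a larger response (*S100a9*), where 0.195% did. As *S100a9* was tested only because of its level in CD70Tg Tregs, nothing is read from the second count. The response of *S100a4* in Tregs was lower than that in Tconvs by a log2 difference of -1.62 ± 0.19 (SE, limma adjusted p = 3.7e-04). The starting level differed, at 2432 ± 344 in control Tregs and 708 ± 31.8 in control Tconvs (SD, n = 2), and the CD70Tg levels were 5696 ± 296 and 5177 ± 850 with overlapping libraries. The difference passed under 16 of 17 alternatives, and not with no minimum value (adjusted p = 0.16).

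*S100a6* and *Anxa2* had the same order of responses without passing, with differences of -0.83 (95% interval -1.24 to -0.41, limma adjusted p = 0.057) and -0.99 (95% interval -1.49 to -0.49, limma adjusted p = 0.062). Both passed without the first CD70Tg Tconv library (adjusted p = 0.0047 and 0.0013) and without the first control Tconv library (0.033 and 0.029). For *S100a10*, *S100a11*, *S100a13* and *Anxa6* the differences were between -0.09 and 0.06. Their 95% intervals reached from -0.27 to 0.40 for *S100a10*, from -0.42 to 0.24 for *S100a11*, from -0.42 to 0.52 for *S100a13* and from -0.39 to 0.33 for *Anxa6*. Differences within these intervals are not excluded. For *Anxa1* the interval was from -2.72 to -0.09 (limma adjusted p = 0.42).

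Control Tregs and control Tconvs were compared to place these responses. This comparison uses the same control libraries as the responses, and the Tconvs, unlike the Tregs, had been depleted of CD25+ cells by antibody before the sort. Of the 9 tested genes, 5 passed higher in Tregs (*S100a4*, *S100a6*, *S100a10*, *S100a11*, *Anxa2*) and 2 lower (*S100a13*, *Anxa1*), where 27.5% and 18.4% of all tested genes passed. Of these, 2 were called higher (*S100a4*, *S100a6*) and 1 lower (*Anxa1*), against 14.7% and 4.43%. *Anxa1* reached the minimum value only through the Tconv libraries, so that its inclusion and its lower level in Tregs are not independent, and nothing is read from its count. The libraries did not overlap for 5 genes that were higher and 3 that were lower in Tregs, against 42.7% and 33.5% of all tested genes.

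From the values given above, *S100a4* was higher in control Tregs by a log2 fold change of 1.77 ± 0.14 (limma adjusted p = 3.7e-08) and *S100a6* by 1.36 ± 0.14 (9.0e-07). *S100a10* was higher by 0.73 ± 0.11 (limma adjusted p = 6.7e-05), *S100a11* by 0.43 ± 0.11 (0.0045) and *Anxa2* by 0.55 ± 0.17 (0.014). *S100a13* was lower by a log2 fold change of -0.52 ± 0.16 (limma adjusted p = 0.014), all with SE. For *Anxa1*, under that limit, the log2 fold change was -1.11 ± 0.44 (SE, limma adjusted p = 0.0498, and 0.19 with no minimum value). The genes that rose with the transgene in Tconvs and were higher in control Tregs were thus *S100a4*, *S100a6*, *S100a10*, *S100a11* and *Anxa2*, while *Anxa6* did not pass between the subsets (log2 fold change -0.16, 95% interval -0.42 to 0.09). *Anxa2* did not pass without the second control Tconv library (adjusted p = 0.097) or the first control Treg library (0.081). *S100a13* did not pass without the second control Tconv library (0.068) or either control Treg library (0.068 and 0.059), and *Anxa1* did not pass without any 1 of the 4 control libraries (0.096 to 0.2).

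Levels can be compared between genes only per length, and were divided by the exon length for this. In control Tconvs the order by mean value per kb of exon was *Anxa6* (5095), *S100a10* (4689), *S100a11* (3964), *S100a13* (1757), *S100a4* (1213), *S100a6* (811), *Anxa2* (351) and *Anxa1* (28), with no overlap of libraries between neighbours in this order. In CD70Tg Tconvs *S100a4* stood first at 8865, followed by *Anxa6* (6912) and *S100a11* (6849), whose libraries overlapped, and *S100a10* (6344). Further down, *S100a6* (2919) and *S100a13* (2273) overlapped too. The level of *S100a4* per length is the least certain of these, as its reads are shared with *Gm42674*.

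In control Tregs the order per kb began with *S100a10* (7747), *S100a11* (5348), *Anxa6* (4556) and *S100a4* (4165), the last pair with overlapping libraries. In CD70Tg Tregs it began with *S100a10* (10971), *S100a4* (9753), *S100a11* (8668) and *Anxa6* (6037), with no overlap between neighbours. *Anxa1* was last of the activated T cell genes in all 4 groups, at 12 per kb in control and 12.9 in CD70Tg Tregs.

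S100A10 is held in a complex with annexin A2, and the ratio of *S100a10* to *Anxa2* per kb of exon was therefore computed in each library. It was 11.6 and 15.4 in control Tconvs and 7.18 and 4.52 in CD70Tg Tconvs, and the groups did not overlap. In Tregs it was 14.6 and 15.6 in control and 13.7 and 13 in CD70Tg libraries, likewise without overlap but closer together. The ratio of *S100a4* to *S100a6*, neighbours on the chromosome, was 1.36 and 1.65 in control and 3.12 and 2.97 in CD70Tg Tconvs, and 1.94 and 2.04 in control and 2.21 and 2.45 in CD70Tg Tregs. These ratios are given as a description, without a test.

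**Figure D3:**
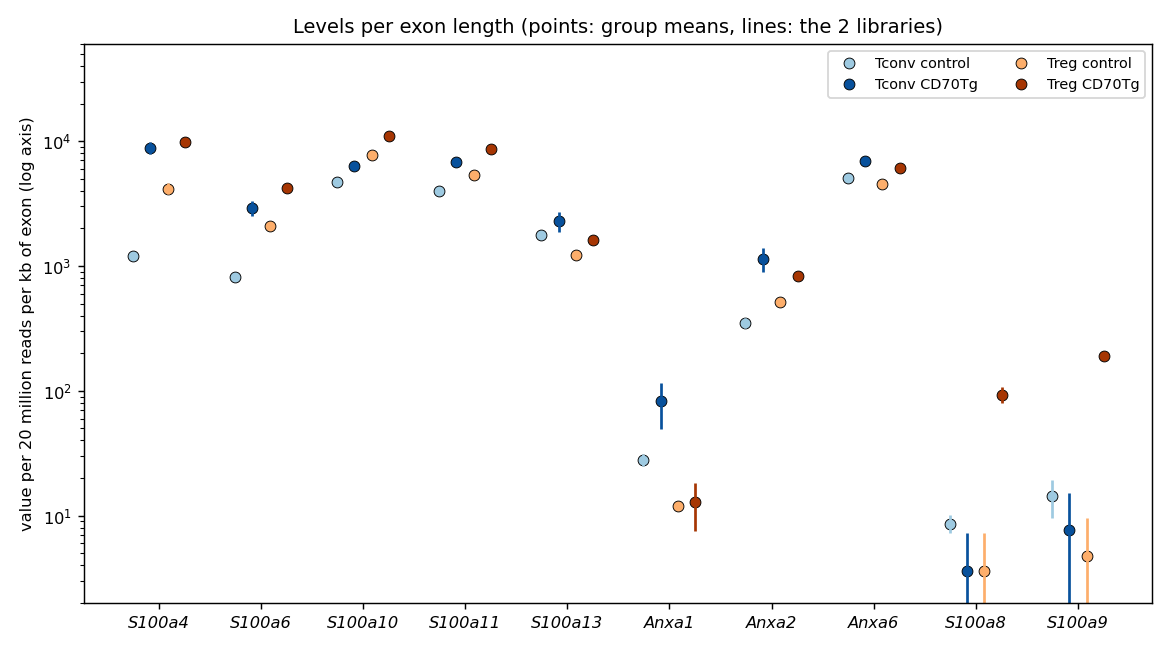
Mean value per 20 M reads per kb of exon (y axis, log scale) of the 10 genes in the 4 groups, with points at the group means and lines joining the 2 libraries (a line that leaves the lower edge has a library at 0). S100a10, S100a11, Anxa6 and, outside control Tconvs, S100a4 stand at 3964 or more, while Anxa1 and the myeloid pair stand at 191 or less in every group.

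The myeloid pair behaved otherwise. *S100a8* was 7 and 5 in control Tconvs, 0 and 5 in CD70Tg Tconvs, 5 and 0 in control Tregs, and 74 and 55 in CD70Tg Tregs. *S100a9* was 10 and 5 in control Tconvs, 0 and 8 in CD70Tg Tconvs, 0 and 5 in control Tregs, and 95 and 104 in CD70Tg Tregs. For both genes, both CD70Tg Treg libraries lay above all 6 others. The study itself names both genes from these libraries, so that their direction in Tregs is not independent evidence.

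The counts behind these values are small. The CD70Tg Treg libraries held an estimated 7 and 10 reads of *S100a8* and 9 and 19 of *S100a9*, while the control Treg libraries held 1 read of each gene in all. Relative to all reads on genes, *S100a8* was 26.4 times as high in CD70Tg as in control Tregs, with a 95% exact interval of 4.14 to 1104, and *S100a9* 43.5 times, with an interval of 7.20 to 1780. Against CD70Tg Tconvs, which held 7 and 12 reads in all, the ratios were 17.5 (6.89 to 49.9) for *S100a8* and 16.8 (8.27 to 36.3) for *S100a9*. These intervals compare the pooled reads of these libraries and hold no spread between libraries.

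*S100a8* did not reach the minimum value and was left out of the test, while *S100a9* reached it only through the CD70Tg Tregs, so that its fold change there is given as a description. It was 3.88 ± 0.63 on the log2(value + 5) scale (SE, limma). With no minimum value, where both genes were fitted, the log2 fold change in Tregs was 3.28 for *S100a8* (limma adjusted p = 0.042) and 3.88 for *S100a9* (0.036), and the difference between the responses was 3.91 for *S100a8* (adjusted p = 0.25) and 4.49 for *S100a9* (0.25). In Tconvs the log2 fold change of *S100a9* was -0.60 (95% interval -1.94 to 0.73, limma adjusted p = 0.7). With the minimum value, the difference between the responses of *S100a9* was 4.49 ± 0.89 (SE, limma adjusted p = 0.019), with the same limit. It passed under 7 of 15 alternatives, and did not pass without the first control Tconv library (adjusted p = 0.06), the first CD70Tg Tconv library (0.06), the first control Treg library (0.0544), or the first or second CD70Tg Treg library (0.067 and 0.059). With a pseudocount of 1 the adjusted p-value was 0.085, and with limma-voom on the estimated reads 0.064.

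Per kb of exon, *S100a9* stood at 191 and *S100a8* at 92.9 in CD70Tg Tregs, against 9753 for *S100a4* in the same libraries. The ratio of *S100a8* to *S100a9* per kb was 0.586 and 0.398 in the CD70Tg Treg libraries. Even at their highest, the pair was thus far below *S100a4*, *S100a6*, *S100a10* and *S100a11*.

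Markers of other cells moved with the pair and are given beside it. Before the sort, granulocytes, macrophages, dendritic cells, NK cells, B cells and CD8+ cells were depleted with antibodies according to the methods, whose cocktail also lists one to Ter119, an erythroid antigen. Of 15 neutrophil markers, 7 (*Ngp*, *Camp*, *Ltf*, *Elane*, *Lcn2*, *Csf3r*, *Mmp9*) were higher in both CD70Tg Treg libraries than in both control Treg libraries, 1 (*Padi4*) was lower, and *Stfa1* was at 0 in all 4. Among all tested genes 22.5% were higher and 31.2% lower in this way, which holds beside the Treg counts of the other lists below too. A single read was worth 10.4 and 5.4 in the CD70Tg and 4.9 and 4.4 in the control Treg libraries. *Elane*, at 11 and 6 in CD70Tg Tregs, thus rests on 1 read in each. Summed over the 14 markers other than *Mmp9*, the values were 74 and 109 in control and 244 and 240 in CD70Tg Tregs, and 191 and 103 in control and 108 and 113 in CD70Tg Tconvs.

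The neutrophil markers were low, and of the 15 only *Csf3r*, *Mmp9* and *Padi4* exceeded 3 reads (values of 31.3 and 16.3, before rounding up) in both CD70Tg Treg libraries. *Csf3r*, which encodes the G-CSF receptor, was 5 and 27 in control and 63 and 44 in CD70Tg Tregs, *Ngp*, a granule gene, 0 and 5 in control and 32 and 17 in CD70Tg Tregs, which is 3 reads in each of the latter, and *Lcn2* 5 and 14 in control and 32 and 22 in CD70Tg Tregs. *Ly6g* was 0 and 0 in control and 11 and 0 in CD70Tg Tregs, *Mpo* 0 and 0 in control and 0 and 6 in CD70Tg Tregs, and *Camp*, another granule gene, 0 and 0 in control and 21 and 28 in CD70Tg Tregs. *Mmp9*, the 1 neutrophil marker that could be tested, rose in Tregs (log2 fold change 1.28 ± 0.32, SE, limma adjusted p = 0.022), from 321 and 272 to 617 and 854, and did not pass without the second CD70Tg (adjusted p = 0.16) or either control Treg library (0.092 and 0.14). The 12 monocyte and macrophage markers summed to 4359 and 4548 in control and 5177 and 5013 in CD70Tg Tregs, and to 2065 and 1891 in control and 1512 and 1905 in CD70Tg Tconvs, with 7 of 12 higher and 2 lower in both CD70Tg Treg libraries and *Ms4a3* at 0 in all 8.

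Among these, the 2 lower in Tregs were *Csf1r* and *Adgre1*. *Csf1r* was 1500 and 1205 in control and 930 and 762 in CD70Tg Tregs (log2 fold change -0.67 ± 0.18, SE, limma adjusted p = 0.029). *Adgre1* was 258 and 272 in control and 199 and 202 in CD70Tg Tregs and did not pass (limma adjusted p = 0.49). *Itgam*, which encodes the myeloid integrin CD11b, moved in opposite directions in the subsets. It was 146 and 198 in control and 377 and 381 in CD70Tg Tregs (log2 fold change 1.13 ± 0.26, SE, limma adjusted p = 0.013), and 178 and 166 in control and 93 and 80 in CD70Tg Tconvs (-0.95 ± 0.26, adjusted p = 0.027). The difference between these responses was 2.09 ± 0.36 (SE, limma adjusted p = 0.0087), and did not pass without the first control Treg library (adjusted p = 0.0504). The rise in Tregs did not pass without the first or second CD70Tg Treg library (adjusted p = 0.064 and 0.057) or the first control Treg library (0.19), and the fall in Tconvs not without the second CD70Tg (0.15) or either control Tconv library (0.16 and 0.12). *Lyz2*, which encodes lysozyme of myeloid cells, was 641 and 872 in control and 1181 and 1077 in CD70Tg Tregs, and 788 and 835 in control and 436 and 643 in CD70Tg Tconvs, and passed in neither subset (limma adjusted p = 0.072 and 0.057). Its responses differed by 1.20 ± 0.27 (SE, limma adjusted p = 0.041), which did not pass without the first CD70Tg or second control Tconv library, either CD70Tg Treg library or the first control Treg library (adjusted p = 0.072 to 0.23).

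The erythroid markers moved as well. The 6 markers summed to 571 and 1592 in control and 4046 and 2450 in CD70Tg Tregs, with 5 of 6 higher in both CD70Tg Treg libraries, and to 874 to 1520 in the Tconv libraries. The CD70Tg Treg libraries are also the shallowest pair, with an estimated 1.91 and 3.68 M reads on genes. The part of these markers and of depth in the values of *S100a8* and *S100a9* was not tested.

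**Figure D4:**
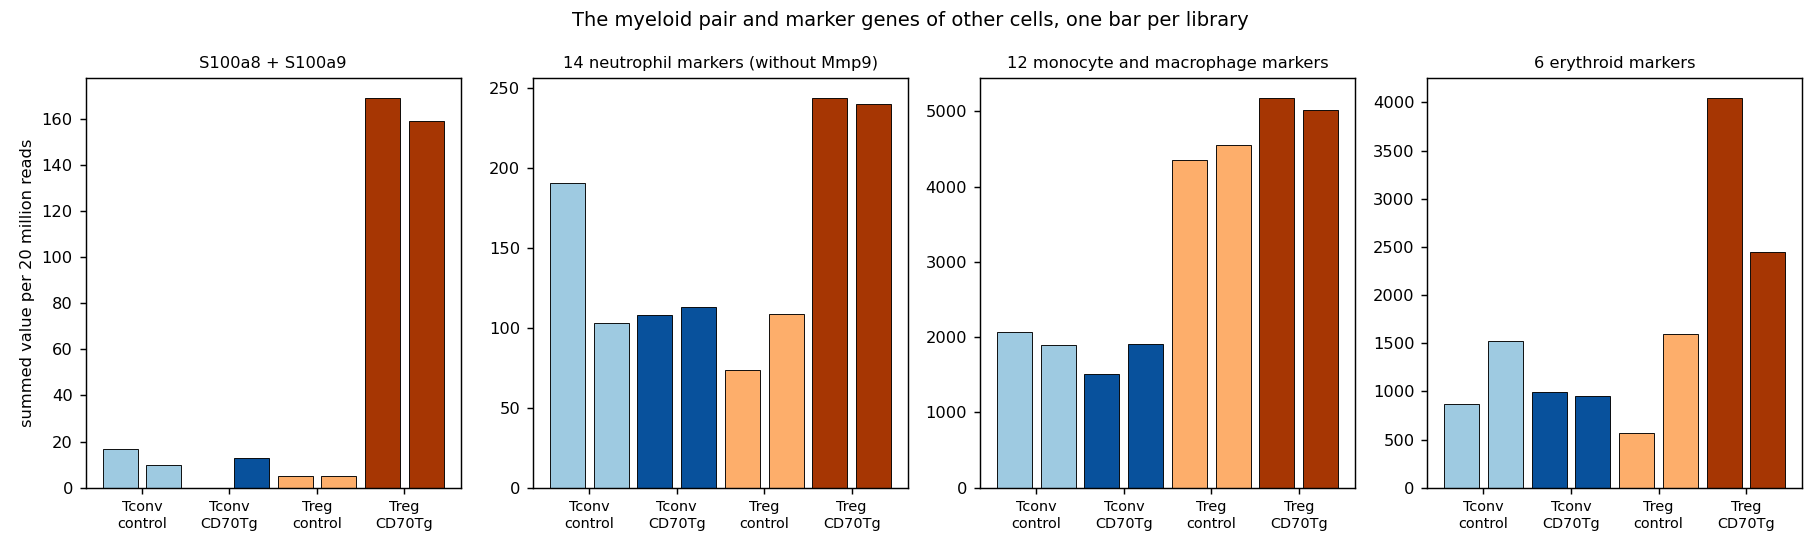
Summed value per 20 M reads (y axis, linear from 0, own range in each panel), a bar for each library, of S100a8 and S100a9, 14 neutrophil markers without Mmp9, 12 monocyte and macrophage markers and 6 erythroid markers. S100a8 and S100a9 together reached 169 and 159 in the CD70Tg Tregs and 0 to 17 elsewhere, and the neutrophil, monocyte and macrophage, and erythroid sums were also highest in these 2 libraries.

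For the activated T cell genes, markers of other cells were also followed. The summed neutrophil markers with *Mmp9* were 179 to 309 in control and 206 to 325 in CD70Tg Tconvs, where *S100a4*, *S100a6* and *Anxa2* rose most, and overlapped. The B cell markers summed to 158 to 182 in control and 64 to 97 in CD70Tg Tconvs, and to 264 to 397 and 454 to 494 in Tregs. Of the 12 monocyte and macrophage markers, 3 (*Cd68*, *Chil3*, *Ifi205*) were higher in both CD70Tg Tconv libraries than in both controls. Another 5 (*Lyz2*, *Itgam*, *Csf1r*, *Cd14*, *Fcgr3*) were lower in both, where 23.7% of all tested genes were higher and 21.4% lower. *Cd68*, which encodes a lysosomal protein of macrophages, was 79 and 51 in control and 245 and 306 in CD70Tg Tconvs (log2 fold change 2.02 ± 0.28, SE, limma adjusted p = 1.1e-04), and 224 and 211 in control and 262 and 348 in CD70Tg Tregs (0.47 ± 0.28, adjusted p = 0.36). *Itgax*, which encodes CD11c, was 31 and 57 in control and 101 and 236 in CD70Tg Tconvs (log2 fold change 1.76 ± 0.43, SE, limma adjusted p = 0.015), which did not pass without the second CD70Tg (adjusted p = 0.26) or the first control Tconv library (0.15), and 49 and 84 in control and 74 and 104 in CD70Tg Tregs. *Zbtb46*, a transcription factor gene of dendritic cells, was 9 and 5 in control and 15 and 38 in CD70Tg Tconvs, and 25 and 27 in control and 209 and 191 in CD70Tg Tregs, through which alone it reached the minimum value (log2 fold change in Tregs 2.72 ± 0.47, SE, limma). The 8 dendritic cell markers, of which *Cst3* made 1332 to 2063 in every library, summed to 1753 to 1767 in control and 1769 to 2410 in CD70Tg Tconvs, and to 1488 to 1526 and 1923 to 2114 in Tregs. Of these 8, 3 (*Itgax*, *Xcr1*, *Zbtb46*) were higher and 3 (*Flt3*, *Cd209a*, *Siglech*) lower in both CD70Tg Tconv libraries than in both controls. In Tregs 5 (*Xcr1*, *Clec9a*, *Siglech*, *Zbtb46*, *Cst3*) were higher in this way and 0 lower. *Cd8a*, which encodes a chain of the CD8 co-receptor, was 17 and 28 in control and 508 and 608 in CD70Tg Tconvs (log2 fold change 4.38 ± 0.39, SE, limma adjusted p = 9.8e-07), and 25 and 71 in control and 262 and 223 in CD70Tg Tregs (2.37 ± 0.39, adjusted p = 0.0012). *Cd8b1*, the other chain, was 703 and 653 in control and 1055 and 982 in CD70Tg Tconvs, and 292 and 346 in control and 398 and 408 in CD70Tg Tregs. The 5 NK cell markers summed to 448 to 508 and 133 to 224 in Tconvs and to 41 to 64 and 0 to 11 in Tregs. Their part in the responses was not tested.

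The other genes of both families gave little. None of 10 other S100 genes reached the minimum value, and together they summed to 42 to 86 in every library. Of 9 other annexins, 4 were tested, and *Anxa4* was the 1 that passed in a response to the transgene. *Anxa4*, which encodes a membrane-binding annexin, was 75 and 70 in control and 168 and 332 in CD70Tg Tconvs, and 311 and 224 in control and 544 and 626 in CD70Tg Tregs. It rose in Tconvs (log2 fold change 1.64 ± 0.29, SE, limma adjusted p = 0.0014) and in Tregs (1.13 ± 0.29, limma adjusted p = 0.027), but did not pass in Tregs without any 1 of the 4 Treg libraries (adjusted p = 0.061 to 0.21). *Anxa5*, *Anxa7* and *Anxa11* were 1466 to 2635 and did not pass in either subset, with log2 fold changes from 0.08 to 0.40.

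Of 16 partners and receptors, 7 were tested. *Ahnak*, the giant scaffold protein gene whose product binds the S100A10 and annexin A2 complex, was 776 and 1543 in control and 3034 and 5327 in CD70Tg Tconvs, and rose (log2 fold change 1.87 ± 0.26, SE, limma adjusted p = 1.4e-04). In Tregs it was 11690 and 16196 in control and 16561 and 14306 in CD70Tg libraries, which overlapped (log2 fold change 0.16, limma adjusted p = 0.78). The difference between the responses was -1.71 ± 0.37 (SE, limma adjusted p = 0.033), and -2.20 to -1.22 over the alternatives, of which it passed under 7 of 17. It did not pass without the second CD70Tg Tconv, the first control Tconv, the first or second CD70Tg Treg or the second control Treg library. Some alternatives that kept all libraries also ended the pass. *Myh9*, the myosin heavy chain bound by S100A4, was 35649 to 43058 in the 8 libraries and *Cacybp*, the partner of S100A6, 941 to 1783, and neither passed in either subset. The formyl peptide receptor genes *Fpr1* and *Fpr2* and *Tlr4*, receptors for annexin A1 and for calprotectin, were at most 66 and not tested. *Ager* and *Bsg*, of the same list of partners and receptors, were 98 to 185 and 3135 to 3901 in the 8 libraries, and neither passed in either subset.

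The members were set beside 10 genes that mark effector memory T cells. In Tregs 7 of the 10 passed upwards and 1 downwards (median log2 fold change 0.73), and 5 of the 8 activated T cell genes of the S100 and annexin families passed upwards (median 0.59), beside 505 upwards and 443 downwards of all 12816 genes (median -0.05). In Tconvs 5 of the 10 passed upwards and 0 downwards (median 0.35), and 6 of the 8 (median 1.09), beside 874 and 255 of all genes (median 0.01). *Lgals3*, the galectin-3 gene, was 201 and 189 in control and 1147 and 2625 in CD70Tg Tconvs (log2 fold change 3.12 ± 0.26, SE, limma adjusted p = 5.1e-07), and 301 and 320 in control and 1150 and 1104 in CD70Tg Tregs (1.84 ± 0.26, limma adjusted p = 3.4e-04).

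*Lgals1* and *Vim*, the galectin-1 and vimentin genes, passed in both subsets, with log2 fold changes of 0.84 and 0.47 in Tconvs (limma adjusted p = 2.5e-04 and 0.02) and 0.70 and 0.90 in Tregs (0.0026 and 2.1e-04). *Vim* did not pass in Tconvs without the second CD70Tg library (adjusted p = 0.15) or without either control library (0.079 each). *Ccr2*, a chemokine receptor gene, passed in both as well (2.25 and 1.11, limma adjusted p = 1.2e-05 and 0.012), though not in Tregs without the second CD70Tg library (adjusted p = 0.1) or either control library (0.08 and 0.055). *Cd44*, a defining marker of memory T cells, fell in Tregs by 0.44 on the log2 scale (limma adjusted p = 0.031), from 3222 and 3394 to 2487 and 2393, and did not pass without any 1 of the Treg libraries (adjusted p = 0.12 to 0.21).

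Of 8 naive T cell genes, 0 passed upwards in either subset. In Tregs 2 passed downwards (*Igfbp4* and *Dapl1*), and in Tconvs 3 (these and *Lef1*), with medians of -0.33 and -0.42. *Dapl1* did not pass in Tregs without the second CD70Tg (adjusted p = 0.2) or the first control library (0.29). *Lef1* did not pass in Tconvs without the second CD70Tg Tconv library (0.37), the first control Tconv library (0.38) or any 1 of the Treg libraries (0.074 to 0.082), and passed in Tregs without either CD70Tg Tconv library (0.045 and 0.0457). *Igfbp4* was 23323 and 22321 in control and 14821 and 11276 in CD70Tg Tconvs, and 1883 and 1489 in control and 711 and 620 in CD70Tg Tregs, opposite in direction to *S100a4* in both subsets. The control libraries are the same for all of these genes, and the lists are set side by side without a test between them.

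**Figure D5:**
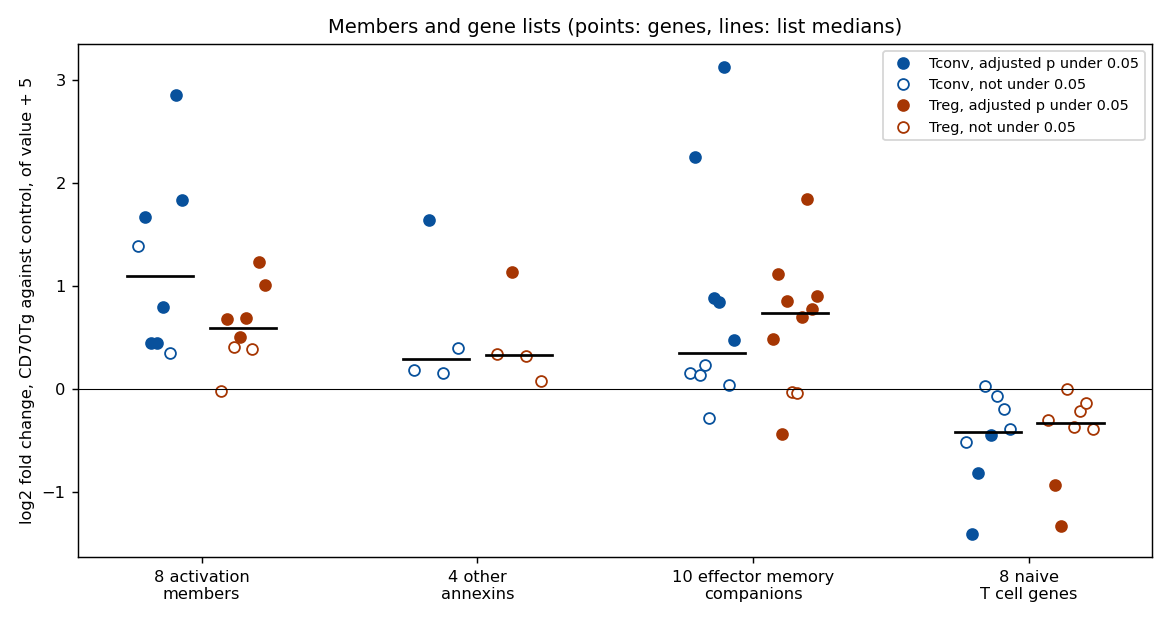
Log2 fold change of value + 5, CD70Tg against control (y axis), of the tested genes of 4 lists in Tconvs (blue) and Tregs (red), with a point for each gene, filled where the adjusted p-value was under 0.05, and a line at the list median. The 8 activated T cell genes of the S100 and annexin families have medians of 1.09 in Tconvs and 0.59 in Tregs, the 10 effector memory companions 0.35 and 0.73, and the 8 naive T cell genes -0.42 and -0.33.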

How the data were processed

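RNA of sorted Tregs and Tconvs was sequenced in 8 libraries. The authors trimmed adapters with Trimmomatic 0.36, mapped to mm10 with STAR 2.5.3 and counted per gene with HTSeq 0.9.1. The deposited values (unit score) were then scaled by the authors to 20 M per library and rounded up. The annotation release and strand setting are not given in the sources used here. Columns were grouped by their names and carry no replicate number of the titles. "First" and "second" follow the order of the columns.

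The 10 members and all other lists were chosen with earlier results of these data known. The 4131 rows named after genomic clones were not used, and of the 97 names on several rows the row with the largest total was used. Genes with 60 or more in at least 2 libraries (12816) were fitted with limma 3.58.1 in R 4.3.3 (trend, log2(value + 5), 4 group coefficients, all 8 libraries), adjusted by Benjamini and Hochberg within each contrast. As the values are not counts, no count model was used. Depth was estimated from the step, the value of 1 read, that best fitted the low values of each library under an assumed distribution of reads. The steps behind 33.31 and 19.52 M reads are close to or below 1, so that those depths are less certain. Ratios of reads have exact binomial intervals at the 95% level. Positions and exon lengths are from GENCODE M21, which holds 99.7% of the identifiers. All members were named. Of the listed genes, those that passed in either CD70Tg contrast could be named, and which of them are given, like the other listed genes, was chosen after their values were seen. The 5 tested genes most like *S100a4* and *S100a9* were also named, by root mean square difference of centred log2 values. The procedure was tested on simulated data. Alternatives were other pseudocounts (1 and 20), minimum values, scalings and thresholds, limma-voom on estimated reads, the clone-named rows kept, the 4 libraries of a subset alone, a floor of 5 reads, and each library left out in turn.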

Additional observations from a re-analysis of the deposited data

Results flagged for a closer look

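The response of *S100a4* to the transgene differed between the subsets by the direct test, with a log2 difference of -1.62 (Treg response minus Tconv response, 95% interval -2.02 to -1.21, limma adjusted p = 3.7e-04). *S100a4* rose in both subsets, more in Tconvs. The adjusted p-value ranged from 1.0e-04 to 0.16 over the alternatives.

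The response of *S100a9* differed in the other direction, with a log2 difference of 4.49 (95% interval 2.60 to 6.37, limma adjusted p = 0.019). Both CD70Tg Treg libraries were above all others, while the CD70Tg Tconv libraries, at 0 and 8, lay on both sides of the lower control. The adjusted p-value ranged from 0.0069 to 0.25 over the alternatives. *S100a9* entered the test only through its level in CD70Tg Tregs, so that the difference is a description, and the low counts and the marker genes given beside *S100a8* and *S100a9* hold for this result too.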

How the results depend on the processing

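No paired analysis was possible because the replicate numbers of the titles are absent from the column names. The genes called were 462 for the Treg response, 596 for the Tconv response, 113 for their difference and 2455 between control subsets. Without a fold threshold they were 948, 1129, 131 and 5875, and the members called 6, 6, 2 and 7 in place of 3, 3, 2 and 3. At an adjusted p-value under 0.01 the Treg response had 251 calls and the difference 48, with 1 member. With no minimum value there were 202, 283 and 0 calls in the responses and their difference, with 0 members passing in the difference and 4 between control subsets, in place of 7. Limma-voom gave 169 calls in Tregs and 52 in the difference. For the difference, 1 member passed and 1 was called, in place of 2, with a pseudocount of 1, a mean of at least 60 and limma-voom, 1 was called with a value above 10 in every library, and 4 passed with a pseudocount of 20. With 1 library left out, the calls were 226 to 479 in Tregs, 315 to 793 in Tconvs, 58 to 209 in the difference and 2036 to 2506 between control subsets, lowest without the first control library in Tregs and the second CD70Tg Tconv library in Tconvs and in the difference (62 without the first CD70Tg Treg library), and highest in the difference without the first CD70Tg Tconv library. Members called were 2 to 3 in Tregs, 3 to 4 in Tconvs, 1 to 3 in the difference and 2 to 3 between control subsets, and members passing 4 to 8 in Tregs, 4 to 8 in Tconvs, 1 to 3 in the difference and 4 to 7 between control subsets. The CD70Tg Treg mean of *S100a8* was 4.66 times the mean value of 3 reads in control Tregs, and 2.79 times with 5 reads. Directions changed only for log2 fold changes that had not passed. *Anxa1* in Tregs became 0.01 (pseudocount of 20), 0.00 (median-of-ratios scaling), 0.03 (upper quartile) and, with a library left out, -0.57 to 0.54 (0.02 without the second control and 0.54 without the second CD70Tg Treg library). With a library left out *S100a9* in Tconvs was -1.29 to 0.09 (0.09 without the first CD70Tg Tconv library). Of the differences, *S100a10* was -0.02 to 0.14, *S100a13* -0.22 to 0.31 and *Anxa6* -0.11 to 0.05 with a library left out, *S100a11* became 0.01 and *Anxa6* 0.07 with upper-quartile scaling, *Anxa6* 0.04 with median-of-ratios scaling and *S100a13* -0.04 with limma-voom. The cause was not tested. Of the other values, 530 kept direction and side of the threshold, 55 lost and 21 gained a pass. At 1.91 to 4.57 M reads, values under about 30 in Tregs rest on few reads, which limits *S100a8*, *S100a9* and *Anxa1*.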

Other observations

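Genes with the pattern most like that of *S100a4* were sought among all 12816 tested genes, by the root mean square difference of log2(value + 5) centred on the mean of each gene over the 8 libraries. *Gm42674*, which shares its reads, differed by 0.020. Next came *Chst2* (0.195), a sulfotransferase gene, *Ms4a6c* (0.253), *Gm18852* (0.273) and *Gbp10* (0.288), an interferon-induced GTPase gene, where the median over all tested genes was 1.239. *Chst2* was 314 and 273 in control and 1366 and 2000 in CD70Tg Tconvs, and 893 and 1029 in control and 2519 and 2143 in CD70Tg Tregs. *Ms4a6c* was 263 and 281 in control and 1934 and 2059 in CD70Tg Tconvs, and 646 and 727 in control and 1547 and 1539 in CD70Tg Tregs. Both were chosen for their likeness to *S100a4*, so that its order, lowest in control Tconvs and intermediate in control Tregs, follows from that choice.

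For *S100a9* the most like were *Rasgrf1* (0.466), *Apol11b* (0.576), *Abcc9* (0.609), *Ermap* (0.691) and *Gm14719* (0.735), with a median over all tested genes of 1.656. Of the 15 neutrophil markers listed here, *Mmp9* was the 1 that reached the minimum value, so that the other 14 could not be among them. *Rasgrf1*, a guanine nucleotide exchange factor gene, was 0 to 5 in 6 libraries and 95 and 82 in CD70Tg Tregs, and *Ermap*, an erythroid membrane protein gene, was 5 to 12 in 6 libraries and 105 and 82 in CD70Tg Tregs. All 5 genes reached the minimum value through the CD70Tg Tregs alone, so that this list was also shaped by that filter and by the low depth of these libraries.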
